A study of Homo sapiens with 6 samples.

Results

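The respiratory chain and ATP synthase were followed through their mitochondrially encoded and nuclear subunit genes. Members were the rows of a gene-level count table whose symbols follow the families MT-ND, MT-CO, MT-ATP, MT-CYB, NDUF, SDH, UQCR, COX4 to COX8 and ATP5, with pseudogenes left out. This gave 78 of 17042 rows: 13 mitochondrially encoded mRNAs, 62 nuclear subunit genes and 3 RNAs named as antisense to a subunit gene. The rule reads symbols only, although it was written with earlier results of these data known. Every one of the 75 subunit genes had enough counts to be tested.

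The chain consists of complexes I to IV in the inner mitochondrial membrane, which pass electrons to oxygen and pump protons, and complex V, which uses the proton gradient to make ATP. Its subunits come from both genomes: the mitochondrial genome encodes a few core membrane subunits of complexes I, III, IV and V on polycistronic transcripts, whereas the nucleus encodes all of complex II and the remaining subunits. In macrophages, polarization with interleukin-4 is known, mainly from mouse cells, for its reliance on oxidative phosphorylation.

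Cells were THP-1, a human monocytic leukaemia line, turned into macrophages with 100 ng/mL PMA for 24 h and then given 20 ng/mL IL-4 for 24 h. In 3 knockdown (KD) libraries a small interfering RNA against the long non-coding RNA RP11-184M15.1 had been transfected before the IL-4 step, and 3 control libraries, labelled wild type, came from the same differentiated line. What was given to the controls in place of that siRNA is not stated. Polyadenylated RNA was sequenced. The labels do not call the libraries of a group separate cultures, so the spread behind every p-value is that between libraries and could be technical.

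Library totals were 12029360 to 14181343 counts in KD and 10450043 to 12113848 in control. No row is named RP11-184M15.1, so its level was not analysed here. All 15 macrophage and monocyte markers had a row, and their summed level was 4539 to 4699 CPM (counts scaled to a common library size) in KD and 4612 to 4788 CPM in control. Of the 15, CD14, CD163 and ITGAX were called higher in KD by edgeR and LYZ lower, 26.7% in all, beside 2.83% of all genes tested. Groups did not overlap for 8 of the 15, beside 20% of all genes tested. Of 18 markers of other cell types, 9 had a row, and they summed to 667 to 709 CPM in KD against 688 to 741 CPM in control, nearly all of it PECAM1, an adhesion molecule that monocytes also carry. Those without a row included CD3D, CD3E, CD3G, CD8A, MS4A1, COL1A2, EPCAM and KRT18. The globin mRNA HBB reached 7.54 CPM in KD 3 and was below 0.1 CPM in the other 5 libraries. The part of these markers in the results was not tested, and in bulk RNA fewer cells of a type and less RNA per cell cannot be told apart.

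The 13 mitochondrially encoded mRNAs sit close together on the mitochondrial genome, and their last bases are shown because most of them carry a poly(A) tail, by which a polyadenylated library captures them. MT-ND6 is the known exception, an mRNA without such a tail. In 5 of them (MT-ND2, MT-CO3, MT-ND3, MT-ND4 and MT-CYB) the annotated gene ends with 1 base beyond its last whole codon, in MT-ND1 with 2, and the poly(A) tail completes the stop codon. The last 24 bases of selected genes are given 5′ to 3′ on the coding strand (GRCh38, GENCODE 29), with the encoded part of the stop codon in capitals.
MT-ND3: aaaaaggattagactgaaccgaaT
MT-CO3: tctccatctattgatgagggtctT
MT-ND1: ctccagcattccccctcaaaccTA
MT-CO2: atagggcccgtatttaccctaTAG
MT-ATP6: ctctacctgcacgacaacacaTAA
MT-ND6: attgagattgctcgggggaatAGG
MT-ND3 lies at chrM:10059-10404 and MT-CO3 at chrM:9207-9990, both on the plus strand. MT-ND6, at chrM:14149-14673, is the one member encoded on the minus strand, and it ends with AGG.

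MT-ATP8 and MT-ATP6 share 46 bases (chrM:8527-8572), shown with the start codon of MT-ATP6 and the stop codon of MT-ATP8 in capitals.
MT-ATP8 and MT-ATP6 overlap: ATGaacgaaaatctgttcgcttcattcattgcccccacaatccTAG
MT-ND4L and MT-ND4 share 7 bases (chrM:10760-10766). Each of these pairs is translated from one bicistronic mRNA, so the division of counts between the members of a pair is uncertain.

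Of the 13 mitochondrially encoded mRNAs, 1 was called in KD against control at an edgeR quasi-likelihood adjusted p under 0.05, with 0 higher and 1 lower. Over all 13405 genes tested, 1.22% were called higher and 1.61% lower, 2.83% in either direction. The called mRNA was MT-ND3, which encodes a small core membrane subunit of complex I. Its level was 609, 597 and 606 CPM in KD 1, 2 and 3 and 680, 674 and 707 CPM in control 1, 2 and 3. The 2 groups did not overlap, and the coefficient of variation (CV) was 1.04% in KD and 2.57% in control. The log2 fold change, KD over control, was -0.19 ± 0.04 (SE, n = 3 each; adjusted p = 0.0239), with a 95% interval of -0.27 to -0.10. The call was lost without any 1 of the KD libraries or without control 2 (adjusted p = 0.0824 to 0.137, edgeR).

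The 3 mitochondrially encoded subunits of cytochrome c oxidase, complex IV, form its catalytic core. MT-CO1, which carries the oxygen-reducing centre, had 6617, 6288 and 6355 CPM in KD and 5769, 7108 and 7645 CPM in control (log2 fold change -0.09 ± 0.07). MT-CO2, which receives electrons from cytochrome c, had 2600, 2615 and 2682 CPM in KD against 2543, 3085 and 3306 CPM in control (-0.18 ± 0.07). MT-CO3 had 1805, 1740 and 1812 CPM in KD and 1784, 2140 and 2341 CPM in control (-0.23 ± 0.07; edgeR adjusted p = 0.114). In each of the 3 the KD values were close together, control 1 lay among or below them, and controls 2 and 3 lay above them, so the groups overlapped. None of the 3 passed the test.

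Among the other members, MT-ATP6, the proton channel subunit of complex V, had 1060, 1027 and 1054 CPM in KD and 996, 1225 and 1376 CPM in control. Its log2 fold change was -0.20 ± 0.08 (edgeR adjusted p = 0.244). MT-ATP8, its small partner in complex V, gave -0.15, and MT-CYB, the only mitochondrially encoded subunit of complex III, gave -0.14. The complex I subunits MT-ND1, MT-ND2, MT-ND4, MT-ND4L and MT-ND5 gave log2 fold changes of -0.18, -0.13, -0.16, -0.16 and -0.09, and none passed the test. In all of these, too, control 1 was at or below the KD values and controls 2 and 3 were above them.

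MT-ND6, the complex I subunit from the minus strand, was sparse, with 46, 59 and 42 counts in KD and 26, 42 and 35 counts in control. At 3.72, 4.13 and 3.44 CPM in KD and 2.45, 3.51 and 3.36 CPM in control the groups overlapped. Its log2 fold change was 0.28 ± 0.20 (edgeR adjusted p = 0.585), the only positive one among the 13. Whether counting used strand is not stated, and MT-ND6 lies antisense to the transcribed region between MT-ND5 and MT-CYB, so its level is uncertain, the more so because its mRNA is known to lack a poly(A) tail and the library was made from polyadenylated RNA.

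The median log2 fold change of the 13 was -0.16, with 12 below 0, against a median of -0.00 over all genes tested. The unadjusted p was under 0.05 in 5 of the 13, beside 2025 of all 13405 genes tested: MT-ND3, MT-CO3, MT-CO2, MT-ND1 and MT-ATP6. For 6 of the 13 (46.2%, beside 53.5% of all genes tested) the 95% interval of the fold change lay inside 1.25-fold in either direction. MT-ND3 was the only member without overlap between groups (7.69% of the 13, beside 20% of all genes tested in either direction and 10.4% with KD lower and 9.61% with KD higher).

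**Figure D1:**
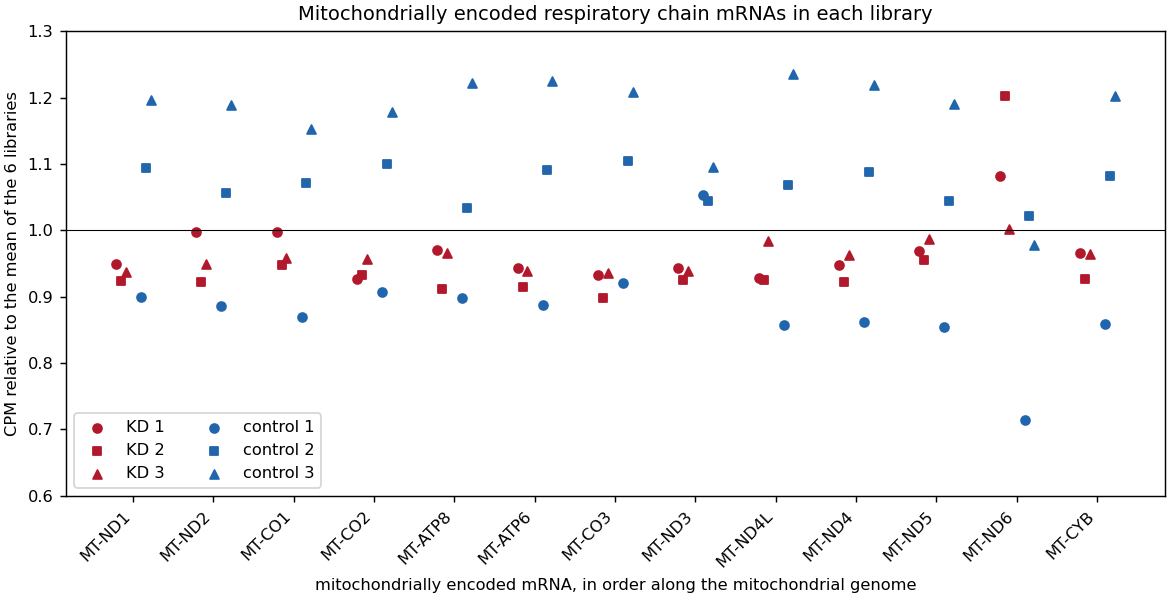
The CPM of each mitochondrially encoded mRNA divided by its mean over the 6 libraries, for KD (red) and control (blue) libraries 1 (circles), 2 (squares) and 3 (triangles). Control 1 is the lowest control and control 3 the highest in 12 of 13 mRNAs each, the KD points lie between them except in MT-ND3, MT-CO3 and MT-ND6, where part or all of them fall outside, and MT-ND3 is the one mRNA without overlap.

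Per kilobase of gene length, the mean level in KD and control was highest for MT-CO1 (4164 and 4436 CPM per kb) and MT-CO2 (3849 and 4354 CPM per kb). MT-CO3 (2278 and 2663), MT-ND4 (2097 and 2345), MT-ND3 (1745 and 1986), MT-ND1 (1647 and 1869), MT-ND4L (1605 and 1789) and MT-ATP6 (1537 and 1761 CPM per kb) followed. MT-CYB, MT-ATP8, MT-ND2 and MT-ND5 lay between 639 and 818 CPM per kb in KD and between 678 and 900 CPM per kb in control. MT-ND6 had 7.17 CPM per kb in KD and 5.92 CPM per kb in control, the lowest in both groups. Neighbours such as MT-CYB and MT-ATP8 differed by less than the spread between libraries. The order of the 13 was the same in both groups.

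The control libraries differed from each other far more than the KD libraries did. The median CV of the 13 mRNAs was 2.22% in KD and 15.4% in control, and the CV was smaller in KD for 13 of 13, beside 61.9% of all genes tested. Nuclear subunits had a median CV of 3.32% in KD and 6.58% in control, with the CV smaller in KD for 51 of 62. Over all genes tested the median CVs were 5.91% in KD and 7.83% in control.

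Single libraries decided how many mitochondrially encoded mRNAs were called. Without control 1, 12 of 13 were called lower in KD, all but MT-ND6, where 2.4% of all genes tested were called lower. The median log2 fold change of all 13 was then -0.26. Without control 3 only MT-ND3 was called (2.24% of all genes called lower) and the median was -0.03, while the nuclear median stayed between -0.06 and -0.00 whichever library was left out. Without control 2 or any 1 of the KD libraries none was called by edgeR.

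**Figure D2:**
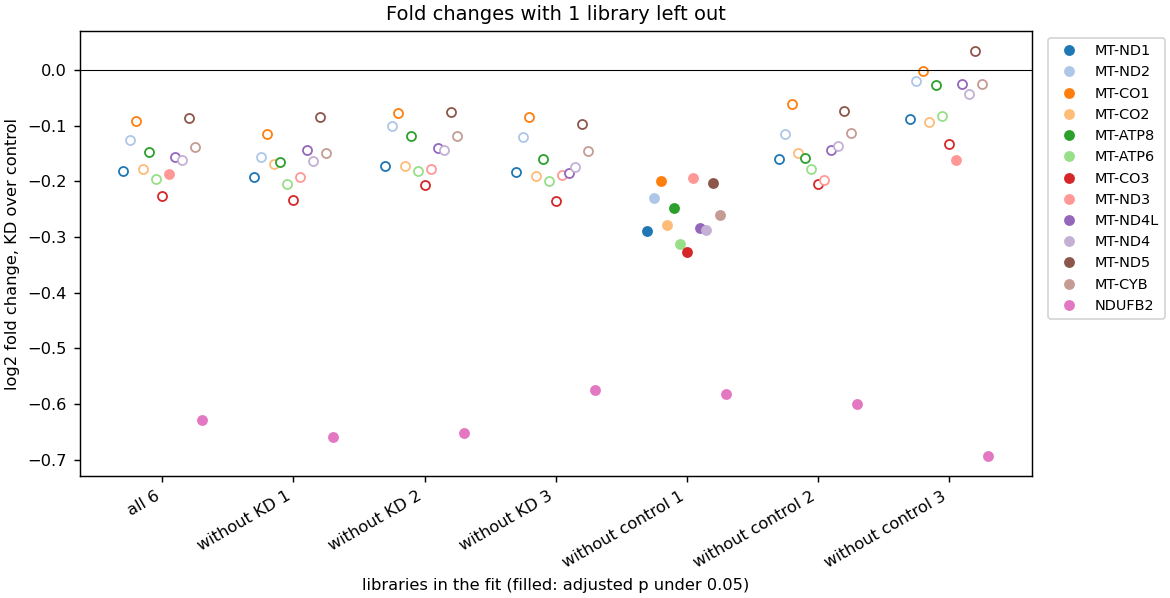
Log2 fold change, KD over control, of 12 mitochondrially encoded mRNAs (all but MT-ND6) and NDUFB2 in the fit of all 6 libraries and with each library left out in turn; filled points passed an edgeR adjusted p of 0.05. All 12 mRNAs are filled without control 1, only MT-ND3 is filled with all libraries and without control 3, and NDUFB2 is filled throughout, between -0.69 and -0.58.

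Set beside each other as sums, the mitochondrially encoded mRNAs took 2.10%, 2.02% and 2.09% of all counts in KD and 1.88%, 2.30% and 2.54% in control. The 62 nuclear subunit genes took 0.617%, 0.610% and 0.605% in KD and 0.637%, 0.609% and 0.575% in control. In the controls the 2 sums were ordered oppositely: control 1 had the smallest mitochondrial and the largest nuclear share, and control 3 the reverse. The ratio of mitochondrially encoded to nuclear counts was 3.40, 3.32 and 3.45 in KD and 2.96, 3.78 and 4.43 in control, so the KD ratios fell inside the control range. The means were 3.39 ± 0.0702 in KD and 3.72 ± 0.734 in control (SD, n = 3 each).

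In CPM, the mitochondrially encoded sum averaged 20495 ± 354 in KD and 22661 ± 3264 in control (SD, n = 3 each), a difference of -9.56%. The nuclear sum averaged 6043 ± 67.4 CPM in KD and 6134 ± 344 CPM in control, a difference of -1.48%, whereas its share of all counts differed by 0.659%. Both differences were smaller than the SD of the control libraries. By complex, the mitochondrially encoded sums differed by -10.0% in complex I, -9.11% in complex III, -8.97% in complex IV and -12.3% in complex V. The nuclear sums differed by -3.15% in complex I, 3.11% in complex II, -2.20% in complex III and 0.238% in complex IV. In complex V the rule took 1 nuclear gene, ATP5F1, which differed by -2.64%, and together with the 16 subunits under older symbols the sum differed by -1.15%.

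**Figure D3:**
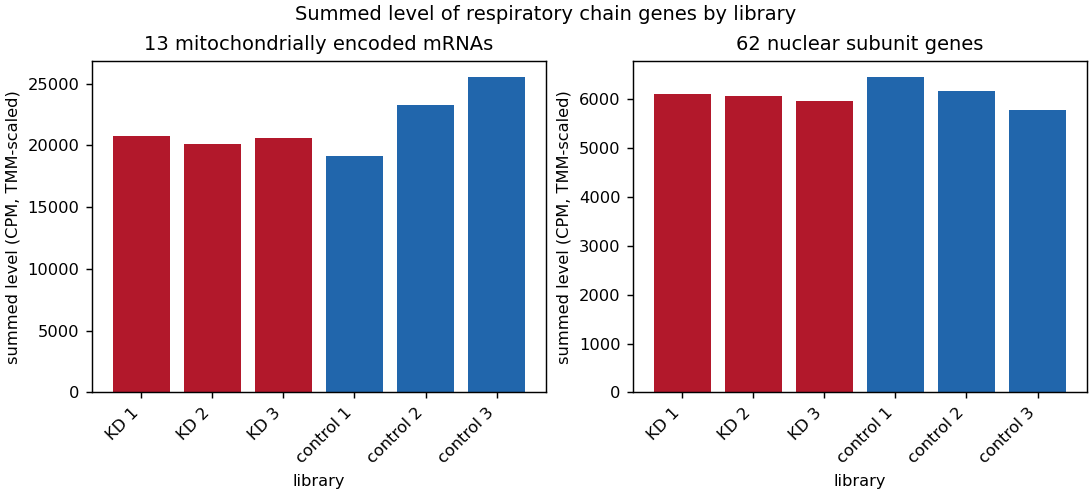
Summed level in CPM of the 13 mitochondrially encoded mRNAs (left panel) and of the 62 nuclear subunit genes (right panel), 1 bar for each library, KD (red) left of control (blue). The KD bars lie close together in both panels, whereas control 1 is the lowest of all 6 on the left and the highest on the right, and control 3 the reverse.

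The opposite order in the controls was seen gene by gene. Control 1 was the lowest control in 12 of 13 mitochondrially encoded mRNAs (beside 35.8% of all genes tested) but the highest in 40 of 62 nuclear subunits (64.5%, beside 37.6% of all genes tested). Control 3 was the highest control in 12 of 13 mitochondrially encoded mRNAs (beside 34.2% of all genes tested) and the lowest in 47 of 62 nuclear subunits (75.8%, beside 34.6% of all genes tested). Cytosolic ribosomal protein mRNAs, read as a further sign of how the libraries differ, deviated from their 6-library mean by a median of -0.03, -0.04 and -0.06 (log2) in KD and 0.13, 0.08 and -0.04 in control. Of these 30 mRNAs, 1 was called lower in KD (RPS2), or 3.33%, beside 1.61% of all genes tested. Their median log2 fold change was -0.11, with 29 of the 30 below 0. For 8 of the 30 every KD library was below every control library, beside 10.4% of all genes tested. What sets control 1 and control 3 apart was not tested.

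Of the 62 nuclear subunit genes, 1 was called in KD against control by edgeR, with 0 higher and 1 lower. This is 1.61% of the 62, no more than the share called lower over all genes. The median log2 fold change was -0.04, with 46 genes below 0 and 16 above. In 53 of 62 the log2 fold change was smaller than 0.1 in size. In 58 of 62 (93.5%, beside 53.5% of all genes tested) the 95% interval lay inside 1.25-fold in either direction. The width of such an interval also depends on a gene's counts, for which these shares were not matched. Groups did not overlap for 4 of 62 (6.45%, beside 20% of all genes tested): NDUFB2 and NDUFB11 were lower in KD and COX8A and SDHD higher.

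The gene called was NDUFB2, an accessory subunit in the membrane arm of complex I. It had 275, 314 and 240 counts in KD and 372, 407 and 309 counts in control. Scaled to library size, these were 22.2, 22.0 and 19.7 CPM in KD and 35.1, 34.0 and 29.7 CPM in control. Every KD library was below every control library, and the means were 21.3 ± 1.41 CPM in KD and 32.9 ± 2.86 CPM in control (SD, n = 3 each). The log2 fold change was -0.63 ± 0.09 (95% interval -0.81 to -0.45; edgeR adjusted p = 0.000642). With any 1 library left out it stayed between -0.69 and -0.58, and the adjusted p between 0.000213 and 0.01003.

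NDUFB2 (ENSG00000090266.12) lies at chr7:140690777-140722790 on the plus strand (GRCh38, GENCODE 29). The annotated span overlaps ADCK2 on the same strand and BRAF and NDUFB2-AS1 on the opposite one, so reads in shared exons could be assigned to either gene. ADCK2, a putative mitochondrial kinase, had 18.3, 18.8 and 18.9 CPM in KD and 18.3, 18.2 and 16.0 CPM in control (log2 fold change 0.09; edgeR adjusted p = 0.694). BRAF, a protein kinase of the MAPK pathway, gave 0.02 (adjusted p = 0.941, edgeR). Neither neighbour passed the test.

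The bases upstream of the RefSeq start site of NDUFB2 are shown because it is the nuclear member with the largest difference. RefSeq and GENCODE place the start differently. These bases therefore lie inside the GENCODE span given above, and inside that of NDUFB2-AS1 (chr7:140695336-140697077) on the opposite strand. They are the 250 bases before the RefSeq start, chr7:140696458-140696707 on the plus strand (GRCh38.p14), with the palindromic cAMP response element TGACGTCA, at 53 to 46 bases before the start, in capitals.
NDUFB2 promoter: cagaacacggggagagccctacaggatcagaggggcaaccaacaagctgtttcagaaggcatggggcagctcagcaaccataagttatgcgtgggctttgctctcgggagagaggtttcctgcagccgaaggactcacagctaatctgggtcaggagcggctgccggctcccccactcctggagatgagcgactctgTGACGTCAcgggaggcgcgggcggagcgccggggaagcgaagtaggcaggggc
The RefSeq promoter table matched 53 of the 62 nuclear subunit genes. On both strands of the same 250-base window, the motif of NRF1, a regulator of nuclear mitochondrial genes (GCGCA, any base, then GCGC), was present in 10 of 53 (18.9%), beside 10.7% of 9780 promoters of tested genes and 5.53% of all 27305 promoters. The ETS-family motif bound by GABP (CCGGAAG) was present in 14 of 53 (26.4%), beside 16.4% of promoters of tested genes and 8.82% of all. TGACGTCA was present in 2 of 53, NDUFA10 and NDUFB2, or 3.77%, beside 2.83% of promoters of tested genes and 1.77% of all. SDHD and UQCR11 hold both of the first pair of motifs, at places that do not overlap. A match is a description of these letters, and binding was not measured.

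**Figure D4:**
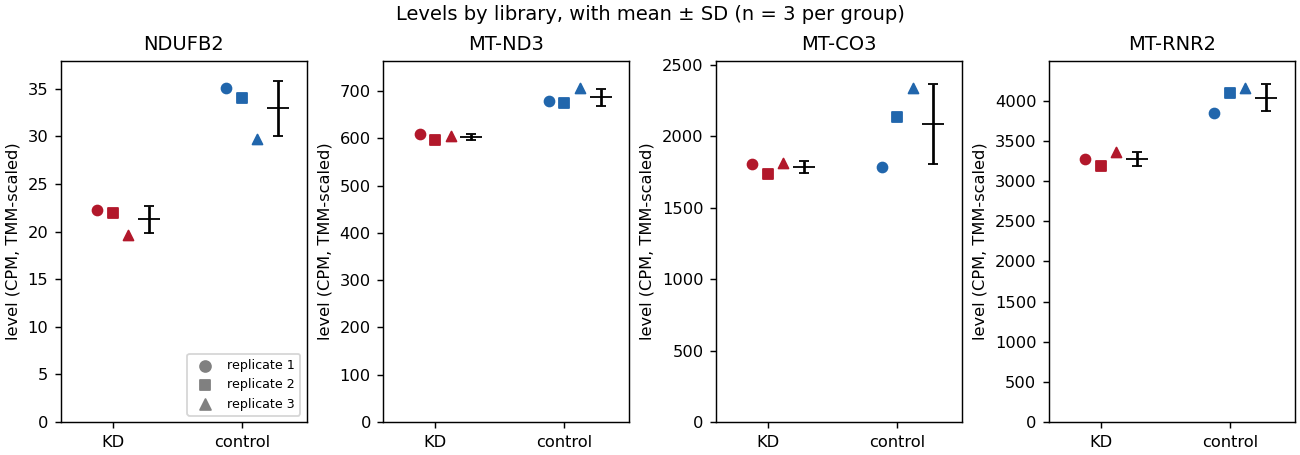
CPM in each library, KD (red) left of control (blue), with the mean ± SD of each group (n = 3), for NDUFB2, MT-ND3, MT-CO3 and the mitochondrial 16S rRNA MT-RNR2. In NDUFB2, MT-ND3 and MT-RNR2 every KD library is below every control library, whereas in MT-CO3 control 1 (1784 CPM) lies among the KD libraries (1740 to 1812 CPM).

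The other 35 nuclear genes of complex I gave no call. NDUFA13, one of those with the highest CPM (not scaled to length), had 117, 116 and 115 CPM in KD and 129, 124 and 106 CPM in control. The median log2 fold change of the 36 complex I genes was -0.04. NDUFV3, an accessory subunit at the flavin-bearing tip, had the highest at 0.06 ± 0.06 (edgeR adjusted p = 0.695).

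NDUFB1 and NDUFA7 were named after their values were seen. NDUFB1 had 27.3, 29.1 and 27.6 CPM in KD and 39.2, 33.3 and 26.7 CPM in control (log2 fold change -0.24; edgeR adjusted p = 0.297), so control 3 overlapped KD, and it was called only without control 3 (adjusted p = 0.0274). NDUFA7 had 17.0 CPM in KD 1 and 26.3 to 28.6 CPM in the other KD libraries, against 25.4 to 26.9 CPM in control. NDUFA7 overlaps RPS28 on the opposite strand, and its counts are therefore uncertain. NDUFS3, a core subunit of the peripheral arm, had 58.3, 57.2 and 57.9 CPM in KD and 63.3, 56.2 and 50.3 CPM in control (log2 fold change 0.03; adjusted p = 0.895). It shares part of its span with PTPMT1, a mitochondrial phosphatase that was called higher in KD (log2 fold change 0.57; edgeR adjusted p = 0.00016). In all, 27 nuclear subunit genes overlap the annotated span of another gene that has a row.

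Complex II, succinate dehydrogenase, links the chain to the citric acid cycle and is wholly nuclear. SDHD, a membrane anchor subunit, had 163, 156 and 157 CPM in KD and 153, 141 and 145 CPM in control, without overlap (log2 fold change 0.12 ± 0.05; edgeR adjusted p = 0.248). SDHC, the other anchor, gave 0.02. SDHB, the iron-sulphur subunit, had 88.3, 83.7 and 83.8 CPM in KD and 97.9, 87.7 and 87.2 CPM in control (-0.09; adjusted p = 0.481). SDHA, the flavoprotein subunit, gave 0.11 (adjusted p = 0.356). None passed the test, and complex II was the one complex whose nuclear median, 0.06, was above 0.

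Complex III passes electrons from ubiquinol to cytochrome c. UQCRC1, a core subunit, had the highest CPM of the nuclear members, a value that also depends on transcript length, with 411, 427 and 401 CPM in KD and 409, 432 and 390 CPM in control (log2 fold change 0.01). UQCRC2, the other core subunit, had 184, 187 and 190 CPM in KD and 210, 195 and 189 CPM in control (-0.08 ± 0.05; edgeR adjusted p = 0.450). UQCRB, a small subunit near the ubiquinone site, had 237, 224 and 236 CPM in KD and 283, 237 and 201 CPM in control (-0.05). For UQCRB the KD libraries lay inside a control range far wider than their own. The 8 nuclear genes had a median of -0.04 and 0 calls.

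In complex IV the 13 nuclear genes, NDUFA4 and NDUFA4L2 included, gave 0 calls and a median log2 fold change of -0.01. COX4I1, the largest nuclear subunit, had 236, 243 and 227 CPM in KD and 252, 243 and 229 CPM in control (-0.04). COX8A, a small subunit of the membrane part, had 130, 137 and 131 CPM in KD and 122, 126 and 118 CPM in control. Its groups did not overlap, but at 0.12 ± 0.05 it did not pass the test (edgeR adjusted p = 0.227). COX5A, a matrix-side subunit, had the lowest log2 fold change, -0.09 (adjusted p = 0.457). COX6C, named after its values were seen, was called higher only without control 1 (adjusted p = 0.0383; 0.629 with all libraries).

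Several complex IV subunits have tissue isoforms. COX6A1, COX6B1, COX7A2 and COX7A2L, the last known for a role in joining complexes III and IV, gave log2 fold changes of -0.02, 0.03, -0.01 and -0.06. COX4I2, COX6A2, COX6B2, COX7A1 and COX8C had no row and are not analysed here. NDUFA4 had a mean of 166 ± 3.04 CPM in KD and 164 ± 12.6 CPM in control, and its paralogue NDUFA4L2, known as a hypoxia-induced gene, 1.18 ± 0.170 CPM in KD and 1.23 ± 0.240 CPM in control (SD, n = 3 each). Neither passed the test, and the depth leaves NDUFA4L2 with an interval of -0.75 to 0.61 on the log2 scale.

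The table uses older symbols for ATP synthase, so the symbol rule took a single nuclear complex V gene, ATP5F1 (now ATP5PB), a stalk subunit. It had 288, 275 and 284 CPM in KD and 301, 295 and 273 CPM in control (log2 fold change -0.04). A further 16 complex V subunits stand in the table under symbols that predate the present ones, and 0 of the 16 were called. They include ATP5A1 and ATP5B, which form the catalytic head, at 0.06 and -0.03, and the genes of the proton-carrying c ring, ATP5G1, ATP5G2 and ATP5G3, at -0.04, -0.09 and 0.05. Groups did not overlap for 1 of the 16 (6.25%, beside 20% of all genes tested), ATP5A1, with every KD library above every control library. The median of the 16 was -0.02. Their sum averaged 2818 ± 9.63 CPM in KD and 2846 ± 118 CPM in control (SD, n = 3 each). C14orf2, an accessory subunit now called ATP5MPL or ATP5MJ, had the lowest value, -0.23 (edgeR adjusted p = 0.202), and was called only without control 3 (adjusted p = 0.0362). The read-through transcript ATP5J2-PTCD1 gave 0.10 (adjusted p = 0.708).

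**Figure D5:**
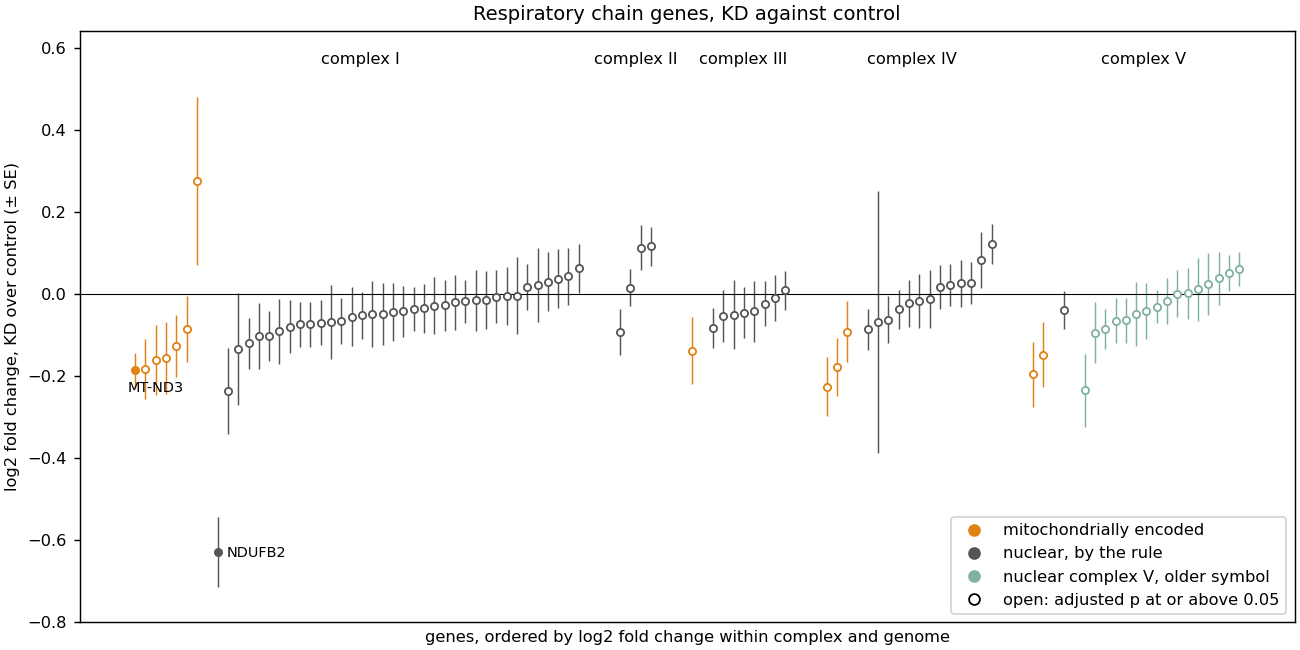
Log2 fold change, KD over control, with its SE, for every tested subunit gene by complex and genome, with the complex V genes that carry older symbols shown apart. The filled points, MT-ND3 and NDUFB2, passed an edgeR adjusted p of 0.05; mitochondrially encoded mRNAs other than MT-ND6 lie between -0.23 and -0.09, and nuclear genes other than NDUFB2 between -0.24 and 0.12.

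The 3 RNAs named as antisense were sparse. NDUFA6-AS1 had a mean of 1.74 ± 0.399 CPM in KD and 1.74 ± 0.386 CPM in control (log2 fold change 0.01). It is now named NDUFA6-DT, for a divergent transcript, and shares only chr22:42090931-42090955 with the span of NDUFA6. NDUFB2-AS1 had 0.485, 1.26 and 0.328 CPM in KD and 1.42, 0.502 and 0.481 CPM in control, with overlapping groups, and was too low to test. NDUFV2-AS1 was below 0.5 CPM in every library and was also not tested. Where such an RNA and its partner share bases, their reads cannot be told apart if strand was not used.

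Other transcripts of the mitochondrial genome did not all follow the mRNAs. MT-RNR2, the 16S rRNA of the mitochondrial ribosome, had 3281, 3185 and 3363 CPM in KD and 3850, 4102 and 4162 CPM in control, without overlap. It was called lower in KD (log2 fold change -0.30 ± 0.04; edgeR adjusted p = 0.00114), also with any 1 library left out. MT-RNR1, the 12S rRNA, had 461, 444 and 515 CPM in KD and 407, 481 and 540 CPM in control (-0.01; adjusted p = 0.978). The controls of MT-RNR1 were spread as those of the mRNAs were, with control 1 lowest and control 3 highest. MT-RNR1 and MT-RNR2 were listed as signs of RNA quality and not as members. The library was made from polyadenylated RNA, and how fully it captures these rRNAs was not measured.

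Nuclear copies of mitochondrial genes share sequence with the members, and Salmon divides such reads by estimate. MTATP6P1 matched MT-ATP6 at 671 of 681 bases (98.5%). A 60-base stretch with 3 of the 10 mismatches, at chrM:8642-8701, is shown with the differing bases in capitals, since only such bases tell the 2 apart.
MT-ATP6: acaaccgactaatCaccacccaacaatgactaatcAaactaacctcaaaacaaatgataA
MTATP6P1: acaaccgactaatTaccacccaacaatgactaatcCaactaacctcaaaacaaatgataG
MTATP6P1 had 127, 124 and 132 CPM in KD and 139, 158 and 178 CPM in control, and was called lower in KD (log2 fold change -0.31; edgeR adjusted p = 0.0267), only without control 1 among the 6 fits with a library left out. MTND2P28, 98.4% identical to MT-ND2, had 341, 322 and 348 CPM in KD and 324, 367 and 415 CPM in control (-0.13; adjusted p = 0.392). With the pseudogene counts added to their genes, an alternative chosen after the data were seen, MT-ND3 was still the one mitochondrially encoded mRNA called.

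Genes that build, express or feed the chain were read from 10 lists, of which 221 genes were tested. Of these, 2 were called higher and 1 lower by edgeR, 1.36% in all, which is below the share over all genes. The median of the 221 was -0.02. The nuclear coactivator gene PPARGC1B, known for driving mitochondrial biogenesis, had 50.2, 50.4 and 53.3 CPM in KD and 39.3, 44.1 and 43.7 CPM in control (log2 fold change 0.27 ± 0.06; adjusted p = 0.0319). IDH3A, a subunit of the isocitrate dehydrogenase of the citric acid cycle, had 88.2, 84.6 and 81.8 CPM in KD and 71.2, 74.5 and 73.5 CPM in control (0.21 ± 0.05; adjusted p = 0.0376). SDHAF2, which helps attach the flavin to SDHA, had 18.8, 17.8 and 19.6 CPM in KD and 22.6, 24.1 and 25.6 CPM in control (-0.36 ± 0.09; adjusted p = 0.0309). Groups did not overlap for 32 of the 221, these 3 included, beside 20% of all genes tested. Each of the 3 lost its call without control 2 or any 1 of the KD libraries, and under DESeq2. PPARGC1B also lost it without control 1, SDHAF2 without control 3 and IDH3A without the filter on low counts.

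By list, complex I assembly factors gave 0 calls of 18, assembly factors of the other complexes 1 lower of 38 (SDHAF2), and regulators of mitochondrial biogenesis 1 higher of 15 (PPARGC1B). Genes of mitochondrial DNA transcription, replication and nucleoids gave 0 of 21, genes of mitochondrial RNA processing and decay 0 of 22, and the citric acid cycle 1 higher of 19 (IDH3A). Mitochondrial ribosomal proteins gave 0 of 49 for the large and 0 of 29 for the small subunit, genes of uncoupling and alternative electron entry 0 of 9, and the carriers CYC1 and CYCS 0 of 2. TFAM, the packaging and transcription factor of mitochondrial DNA, had 25.6, 24.6 and 23.9 CPM in KD and 23.2, 21.3 and 23.6 CPM in control (0.12; edgeR adjusted p = 0.524). POLRMT, the mitochondrial RNA polymerase, gave -0.06, LRPPRC, which stabilizes mitochondrial mRNAs, -0.07, and NRF1 0.01. CYCS, cytochrome c, gave -0.09 and CYC1, cytochrome c1 of complex III, -0.04. PPARGC1A had no row.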

How the data were processed

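The deposited table holds expected counts, written as whole numbers by the authors, per gene symbol for 6 libraries, and its lowest row sum was 10. The build hg38 and the tools DESeq2 and Salmon 0.11.2 are named, without roles, per the submitters' processing notes. Counts split by Salmon between genes that share sequence are estimates, and their rounding and the use of strand are not stated. Depth ran from 10450043 to 14181343 counts a library.

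The counts were used as deposited. All 13405 genes kept by filterByExpr were fitted with edgeR 4.0.16 (quasi-likelihood, two-sided, TMM factors, no term but group, threshold 0.05 after Benjamini-Hochberg adjustment), and only members are given. The SE is approximate, being the size of the log2 fold change over the root of F. CPM uses the TMM factors. Annotation was GENCODE 29 on GRCh38, which matched 78 of 78 members; promoters came from RefSeq (GRCh38.p14). Alternatives were DESeq2 1.42.0, limma-voom (limma 3.58.1), RLE and upper-quartile scaling, scaling without mitochondrially encoded genes, other filters, an adjusted p under 0.01, the replicate number as a block, and leaving out each library. Other tools were R 4.3.3, matplotlib 3.10.9, scipy 1.17.1, pandas 2.3.3, numpy 2.4.6 and Python 3.11.15. The fits were tested on simulated data. Chi-square over degrees of freedom between libraries of a group was 1.90 to 6.79, so none was a duplicate.

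The clause of the rule against a final P and digits was read as a pseudogene suffix, so MT-ATP6 and MT-ATP8 stayed in and NDUFV2P1 was left out. Named genes were all mitochondrially encoded members, called nuclear members, those with the highest CPM and the highest and lowest fold change per complex, isoform groups, antisense and read-through rows, NDUFS3, called list genes and a few fixed regulators; others are said to be chosen by their values or are neighbours of members. The members and the lists were chosen with earlier results of these data known. A few items that the naming rule or the marker lists would name are not reported here.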

Additional observations from a re-analysis of the deposited data

How the results depend on the processing

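The count of genes called over the whole table was 379, and it was 150 at an adjusted p under 0.01 and 139 to 542 with a library left out. The mitochondrially encoded count of 1 was 0 at an adjusted p under 0.01 and 0 to 12 with a library left out, 12 being the value without control 1. The nuclear count of 1 was 1 to 2 with a library left out. The other pathway genes had 3 calls, against 1 with DESeq2 that was not among the 3 (CS, citrate synthase; also called with the replicate block and without control 1), 0 at an adjusted p under 0.01 and 0 to 5 with a library left out. Filters, scalings, limma-voom and DESeq2 left the mitochondrially encoded and nuclear counts at 1 each. The mitochondrially encoded median stayed below 0 in every fit. Of 48 genes named by the fixed rule, with 717 values under alternatives, 684 kept their side of the threshold, 22 lost the call and 11 gained it, all 11 without control 1. Outside that rule, NDUFB1 and C14orf2 gained a call without control 3 and COX6C without control 1. No called gene among the 48 changed sign.

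The replicate number as a block gave 488 calls over the whole table, 1 among mitochondrially encoded mRNAs, 1 among nuclear subunits and 5 among other pathway genes. Deviations of same-numbered KD and control libraries correlated at 0.0625, 0.105 and 0.0668 across genes. Not every pair was above 0.1, so the numbers were not taken as pairs, although every library correlated best with its own number, a hint from the data and not from the design.

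Depth limits MT-ND6, NDUFA4L2 and the antisense RNAs, whose counts were low. With 3 libraries a group, the summed mitochondrially encoded level differed by less than the SD of the controls.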
